A study of Mus musculus with 3 samples.

Results

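SNARE proteins, the membrane fusion machinery of the secretory and endolysosomal routes, were followed here through their RNAs in macrophages given Lipid A in 2 rounds. The list held 37 genes chosen by function: 32 SNARE proteins, 2 SM proteins (Stxbp2 and Stxbp3) and 3 disassembly factors (Nsf, Napa and Napg). Of these, 36 genes were matched among the 55536 Ensembl genes of the gene tables, 31 of them SNARE proteins, and Stx10 was not analysed here. Of the 36, 35 were matched by the symbols paired with gene identifiers in the second transcript table. Vamp7 was matched through the annotation, which places it on an unplaced scaffold, and so has no value in the second transcript table.

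The 3 libraries, replicates 1, 2 and 3, are 1 group of bone marrow-derived macrophages, phagocytes grown in culture from the marrow of C57BL/6J mice. Every culture received 100 ng/ml Lipid A for 12 h, had it washed out for 12 h, and received 100 ng/ml Lipid A once more for 50 min. The libraries were made from cytosolic total RNA after removal of ribosomal RNA, with 1 µg of input and a fragment size of 250 to 400 bases. The labels give no age or sex, and tie all 3 libraries to 1 donor entry. Any p-values therefore cover these samples only, and the spread between them may be technical in part. Lipid A, a bacterial membrane glycolipid, activates macrophages through Toll-like receptor 4. No library without it is in the group: levels, their spread between replicates and the choice of transcript can be described, and induction cannot. Depth was 47972062 to 54409436 expected counts over genes per library. The macrophage identity of the label was met by its markers, with 8 of 8 reaching 1 TPM (a relative transcript level that divides by transcript length) throughout and a summed level of 6998, 6077 and 7869 TPM in replicates 1, 2 and 3. Neutrophil markers summed to 10.1, 10.5 and 8.0 TPM, with Ly6g at 0 counts, endothelial markers to 5.24, 1.91 and 6.39 TPM, and the other 6 lists of foreign markers to at most 0.73 TPM in any library.

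A SNARE carries a coiled-coil helix and is anchored in the membrane of a vesicle or of its target. Fusion takes a bundle of Qa, Qb, Qc and R helices drawn from both membranes, in which SNAP-25-type proteins supply the Qb and Qc helices together (Qbc). SM proteins hold the bundle as it forms, and the ATPase NSF with its SNAP adaptors takes it apart afterwards. In macrophages these proteins serve cytokine release, phagosome growth and maturation, and delivery to lysosomes.

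The R and Q names come from the residue at the centre of the bundle, usually arginine in R-SNAREs and glutamine in Q-SNAREs. The coding sequence around that residue is given below for selected members, the R-SNAREs first. Sites were found by a residue pattern that requires arginine or glutamine at the centre, so the windows do not test the class. Each window holds 45 bases (15 codons) of the most abundant coding transcript that has the site, from the GENCODE M21 transcripts, with the codon of the central arginine in capitals and coordinates on mm10. The window of Sec22b crosses an intron, so its coordinates span it.

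Vamp8 (chr6:72388292-72388336, minus strand): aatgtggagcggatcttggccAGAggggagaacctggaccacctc
Vamp3 (chr4:151051010-151051054, minus strand): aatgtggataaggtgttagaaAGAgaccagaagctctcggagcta
Vamp2 (chr11:69089752-69089796, plus strand): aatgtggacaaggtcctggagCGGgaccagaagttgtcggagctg
Vamp1 (chr6:125218932-125218976, plus strand): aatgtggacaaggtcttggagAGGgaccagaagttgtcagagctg
Vamp4 (chr1:162588239-162588283, plus strand): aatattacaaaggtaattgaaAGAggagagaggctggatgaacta
Vamp5 (chr6:72370224-72370268, minus strand): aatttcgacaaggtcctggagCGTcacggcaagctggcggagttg
Ykt6 (chr11:5964567-5964611, plus strand): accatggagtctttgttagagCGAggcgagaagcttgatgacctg
Sec22b (chr3:97914607-97921120, plus strand): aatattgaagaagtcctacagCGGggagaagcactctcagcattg

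The 15 encoded residues were the same in Vamp3, Vamp2 and Vamp1, although Vamp3 and Vamp2 differed at 10 of the 45 bases and Vamp2 and Vamp1 at 3. Vamp8 shared 6 of 15 encoded residues with Vamp3 and 8 of 15 with Ykt6. The central arginine is residue 37 in Vamp8, 43 in Vamp3 and 56 in Vamp2. Vamp8 and Vamp5 are neighbours on chromosome 6 (72385223 to 72390703 and 72368794 to 72380468). Vamp7 is named only.

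The Q windows below follow the members of the endolysosomal and surface steps described next, with the codon of the central glutamine in capitals. Snap23 carries a pair of such sites, which is what makes it a Qbc protein. The windows of Stx7, Stx4a, Stx8 and the first helix of Snap23 cross an intron.

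Stx7 (chr10:24182805-24184994, plus strand): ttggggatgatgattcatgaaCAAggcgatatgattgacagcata
Stx4a (chr7:127846602-127848408, plus strand): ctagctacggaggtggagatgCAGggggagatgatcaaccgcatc
Stx11 (chr10:12941244-12941288, minus strand): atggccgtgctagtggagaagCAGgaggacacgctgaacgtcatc
Vti1b (chr12:79160418-79160462, minus strand): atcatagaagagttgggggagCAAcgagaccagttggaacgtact
Stx8 (chr11:68020971-68109293, plus strand): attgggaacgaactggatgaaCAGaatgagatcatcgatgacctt
Snap23, first helix (chr2:120585577-120586175, plus strand): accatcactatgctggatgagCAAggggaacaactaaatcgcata
Snap23, second helix (chr2:120596734-120596778, plus strand): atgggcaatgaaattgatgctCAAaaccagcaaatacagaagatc

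Nearly the whole machinery was present. In each of the replicates 35 of 36 members reached 1 TPM or more, against 41.1% of all protein-coding genes. Snap25, the Qbc SNARE of neuronal release, was the exception. It held 0 counts in the gene tables of all 3 libraries. For counting error only, that allows up to 0.0599, 0.0553 and 0.0585 CPM in replicates 1, 2 and 3. CPM are counts scaled by library size, taken here at 3 counts a library. In the second transcript table Snap25 had a level above 0 in each library, with 66.2, 100 and 0% of it on Snap25-201. It did not reach 1 TPM in every replicate there. The median member stood at 15.5, 11.8 and 16.04 TPM in replicates 1, 2 and 3 (mean 14.4 ± 2.27, SD, n = 3), against 9.78, 7.29 and 10.29 TPM for the median protein-coding gene detected. Both levels move with the scale. Over the same coding genes, members had a median of 45.1 TPM against 28.4 after rescaling to protein-coding genes, and of 7.40 against 3.93 in the second transcript table. Unscaled TPM was lowest in replicate 2 for 35 of 35 members, as was the median of coding genes, so directions between replicates are given further down in CPM on library sizes scaled by TMM (trimmed mean of M values). In bulk RNA, fewer cells of a type and less RNA per cell cannot be told apart.

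**Figure D1:**
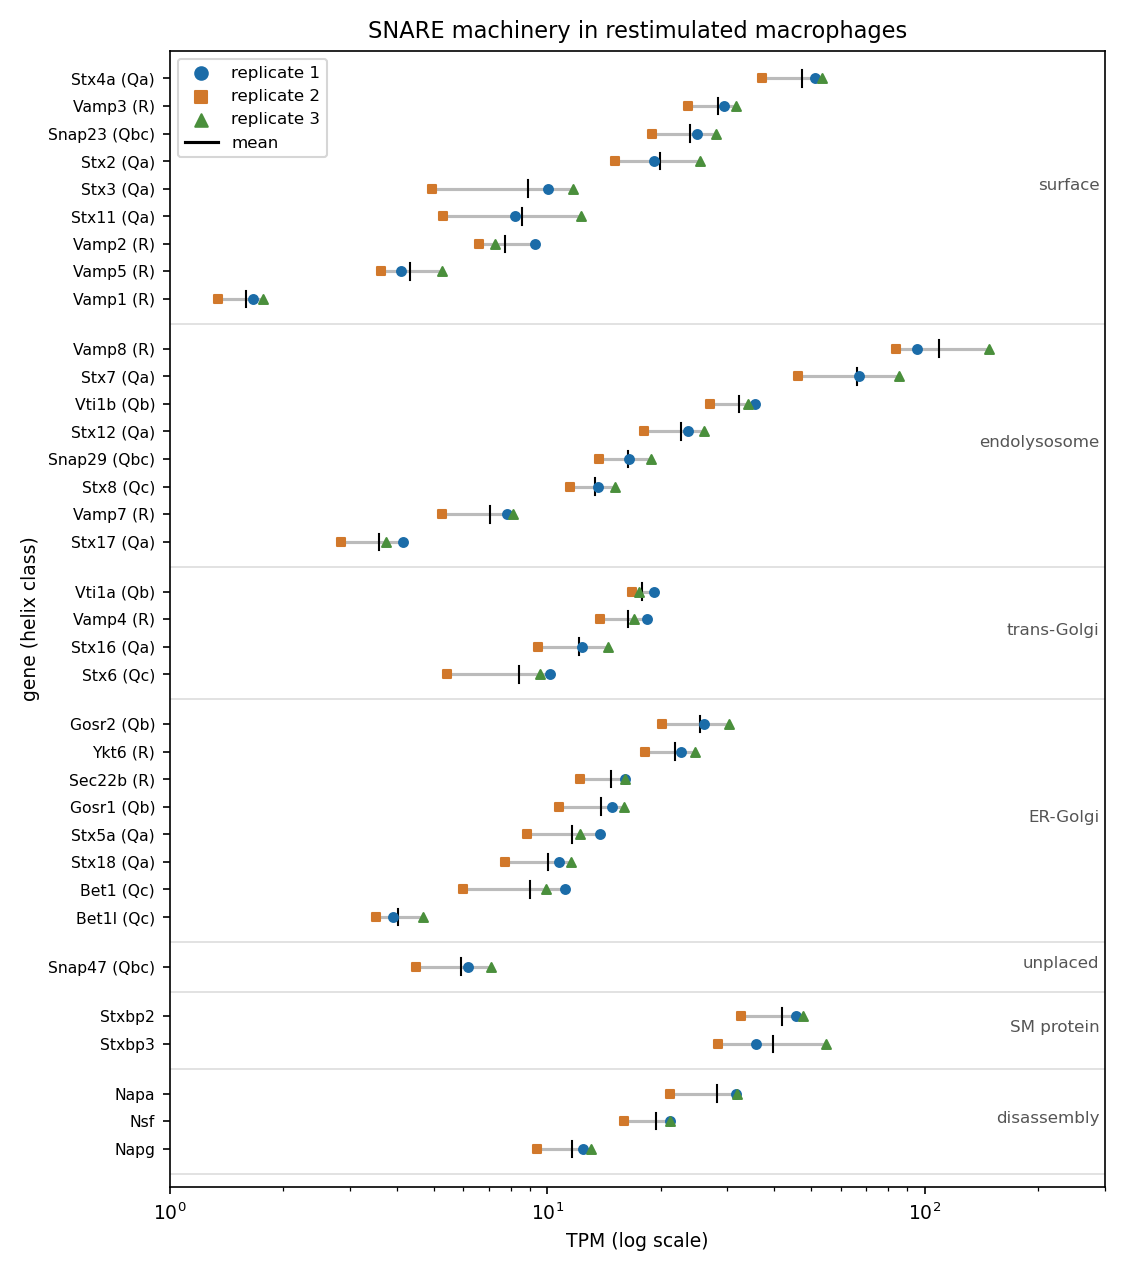
TPM of the 35 members with counts, on a log axis, grouped by transport step and marked by helix class; symbols are the 3 replicates, the grey bar spans them and the black tick is their mean. Vamp8 reaches 148 TPM in replicate 3 and Vamp1 stays under 1.8 TPM, and the replicate 2 symbol is leftmost for every member.

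The level was concentrated on a few members of the endolysosomal route. The R-SNARE Vamp8, endobrevin of late endosomes and secretory granules, led all members, followed by Stx7, the Qa syntaxin of late endosomes, and Stx4a, the Qa syntaxin of the plasma membrane. Of the summed SNARE level (592 ± 123 TPM, SD, n = 3), endolysosomal members held 45.5% ± 2.30, surface members 25.4% ± 0.54, ER-Golgi members 18.7% ± 0.96 and trans-Golgi members 9.34% ± 0.92. Placing a SNARE in 1 step is a simplification, since several act in more than 1. Snap47, which was left unplaced, held 0.997%. On protein-coding transcripts alone, the endolysosomal, surface, ER-Golgi and trans-Golgi shares were 42.9, 27.0, 19.3 and 9.61%. In the second transcript table, which lacks Vamp7, they were 43.6, 25.5, 18.7 and 11.3%. Both alternatives were chosen after seeing the data.

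Among endolysosomal SNAREs, Vamp8 had 95.6, 84.2 and 148 TPM in replicates 1, 2 and 3. Stx7 had 67.1, 46.1 and 85.5 TPM, and Vti1b, its Qb partner, had 35.5, 26.9 and 34.1 TPM. Stx8, the Qc partner, was lower, at 13.6, 11.5 and 15.1 TPM. These 4 form a textbook complex of late endosomes, and their order was Vamp8, Stx7, Vti1b and Stx8 in each replicate. Over replicates, the ranges of Vamp8 and Stx7 overlapped, whereas those of Stx7, Vti1b and Stx8 did not. Stx12, a Qa syntaxin of early and recycling endosomes, had 23.6, 18.1 and 26.05 TPM, and Snap29, a Qbc protein of autophagosome fusion, 16.5, 13.7 and 18.8 TPM. Vamp7, the R-SNARE of late endosomes and lysosomes, stayed between 5.26 and 8.11 TPM, and Stx17, the autophagosomal Qa syntaxin, between 2.84 and 4.14 TPM.

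At the cell surface, Stx4a had 51.2, 37.0 and 53.4 TPM in replicates 1, 2 and 3. Snap23, the non-neuronal relative of Snap25, had 24.9, 18.9 and 28.0 TPM, and Vamp3, the R-SNARE cellubrevin of recycling endosomes, had 29.45, 23.7 and 31.7 TPM. Stx4a was above Snap23 and Vamp3 in each replicate. The other Qa syntaxins of the surface were lower: Stx2 ranged from 15.1 to 25.5 TPM, Stx3 from 4.94 to 11.7 and Stx11, a lipid-anchored syntaxin needed for cytotoxic granule release in human lymphocytes, from 5.29 to 12.3. The R-SNAREs known from neurons and muscle were low as well. Vamp2 lay between 6.61 and 9.26 TPM, Vamp5 between 3.62 and 5.25 and Vamp1 between 1.34 and 1.77.

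Members of the early secretory route ranged from 3.52 to 30.3 TPM. Gosr2, a Qb SNARE of the Golgi, had 26.0, 20.1 and 30.3 TPM in replicates 1, 2 and 3, and the R-SNARE Ykt6, which has a lipid anchor in place of a membrane span, had 22.65, 18.2 and 24.6 TPM. Sec22b, the R-SNARE of ER-to-Golgi transport, ranged from 12.2 to 16.1 TPM, Gosr1 from 10.7 to 15.97 and Stx5a, their Qa partner, from 8.86 to 13.8. Stx18, the Qa syntaxin of retrograde transport to the ER, ranged from 7.75 to 11.6 TPM, and the Qc members Bet1 and Bet1l from 5.99 to 11.2 and from 3.52 to 4.68. At the trans-Golgi, Vti1a (16.8 to 19.1 TPM), Vamp4 (13.8 to 18.4), Stx16 (9.46 to 14.5) and Stx6 (5.42 to 10.2) made up the smallest of the 4 steps by summed level.

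The SM proteins were among the 5 highest members. Stxbp2 (Munc18-2) had 45.55, 32.6 and 47.6 TPM in replicates 1, 2 and 3, and Stxbp3 (Munc18c, a binder of syntaxin 4) had 35.7, 28.4 and 54.7 TPM. Their order differed between replicates, with Stxbp3 the higher in replicate 3. Napa, the alpha-SNAP adaptor, had 31.7, 21.2 and 31.9 TPM, the ATPase Nsf 21.1, 16.01 and 21.2 and Napg, gamma-SNAP, 12.4, 9.42 and 13.1. Napa was above Nsf, and Nsf above Napg, in each replicate.

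By helix class, R-SNAREs held 35.7% ± 1.67 of the summed SNARE level and Qa syntaxins 35.4% ± 1.53 (SD, n = 3). Qb members held 15.2% ± 1.23, Qbc members 7.83% ± 0.20 and Qc members 5.89% ± 0.45. R was the higher of the first pair in replicates 2 and 3 and Qa in replicate 1, so their order does not exceed the spread. Vamp8 alone held 46.6, 49.9 and 57.0% of the R level in replicates 1, 2 and 3, with Vamp3 next at 13.5% ± 1.17 and Ykt6 at 10.4% ± 0.84. The Qa level was divided more widely, with 31.1% ± 1.95 on Stx7, 22.6% ± 1.60 on Stx4a and 10.8% ± 0.75 on Stx12. On protein-coding transcripts alone, the R share was 38.9% and the Qa share 33.6%, and in the second transcript table they were 32.2% and 38.2%, which turns their order round. The R-SNARE Vamp7 is missing from that second table. With Vamp7 left out of the first table as well, an alternative chosen after seeing the data, the R share was 34.9% and the Qa share 35.8%.

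**Figure D2:**
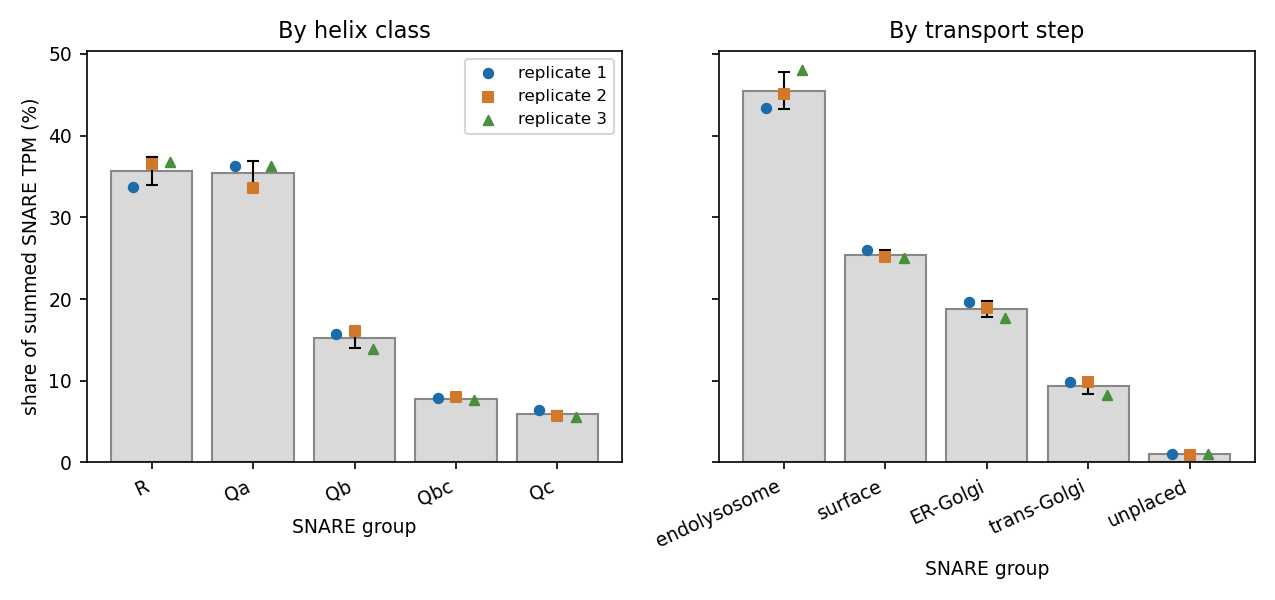
Share of the summed SNARE TPM by helix class and by transport step, in percent; bars are means of 3 replicates, error bars are 1 SD and symbols are the replicates. The R and Qa bars reach 35.7 and 35.4%, and the endolysosomal bar 45.5%.

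Related members were compared within each library, as differences of log2(TPM + 1), over 17 pairs of paralogues or partners. The difference had 1 sign in 3 of 3 replicates for 16 of the 17, at an exact two-sided sign-flip permutation p of 0.25, which is the smallest that 3 replicates can give, so no pair could pass 0.05, before or after adjustment. Vamp8 exceeded Vamp3 by 1.88 ± 0.27 (SD, n = 3), and Vamp3 exceeded Vamp2 by 1.75 ± 0.21. Stx4a exceeded Stx3 by 2.34 ± 0.30, and the difference of Stx11 from Stx4a was -2.38 ± 0.30. Stx7 exceeded Stx8 by 2.19 ± 0.26 and Stx12 by 1.48 ± 0.19. The difference from Stx12 was 0.80 when protein-coding transcripts alone were counted. Vti1b exceeded Vti1a by 0.81 ± 0.15, or by 0.27 on coding transcripts.

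In the early secretory route Gosr2 exceeded Gosr1 by 0.83 ± 0.06, Bet1 exceeded Bet1l by 0.96 ± 0.34, and Sec22b differed from Ykt6 by -0.53 ± 0.05, or by -1.23 on coding transcripts. At the trans-Golgi and endosome, Vamp4 exceeded Vamp7 by 1.12 ± 0.13, and the difference of Stx6 from Stx16 was -0.50 ± 0.23, or -1.2 on coding transcripts. Snap23 exceeded Snap29 by 0.52 ± 0.07. Snap25 was at 0 counts in the gene tables, so no fold is given for Snap23 against it. Among regulators, Napa exceeded Napg by 1.2 ± 0.10, and Nsf differed from Napa by -0.50 ± 0.10. Stxbp2 and Stxbp3 were the pair without 1 order, at 0.11 ± 0.28. That difference was -0.30 on coding transcripts and -0.00098 without replicate 1.

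Across the whole list ordered by mean TPM, 18 of 35 neighbouring genes kept their order in all 3 replicates. The 5 highest, Vamp8, Stx7, Stx4a, Stxbp2 and Stxbp3, were the 5 highest in each replicate and on coding transcripts. Vamp3 and Napa, with means of 28.3 TPM each, did not differ beyond their spread, nor did Stx3, Stx11 and Stx6, whose orders differed between replicates.

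Most members repeated closely between replicates, and a few did not. In CPM, 25 of the 35 members with counts differed less than 1.2-fold between their highest and lowest replicate, 6 by 1.2 to 1.5-fold and 4 by at least 1.5-fold. The 25 are 71.4% of members, against 38.7% of all genes tested and 48.9% of those averaging 100 or more counts. The median ratio was 1.12 for members, against 1.27 for all genes tested and 1.2 for those averaging 100 or more counts. The median biological coefficient of variation, from edgeR, was 0.116 for members, against 0.140 for genes averaging 100 or more counts, and 28 members lay below 0.140. Depth was not matched between members and these genes, and its part in the differences was not tested.

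The 4 members past 1.5-fold were Stx11, Stx3, Stxbp3 and Vamp8. Stx11 had 36.7, 27.9 and 49.9 CPM in replicates 1, 2 and 3 (highest over lowest 1.79), and Stx3 had 36.2, 23.0 and 40.7 CPM (1.77). Both were lowest in replicate 2 and highest in replicate 3. Stxbp3 had 103, 112 and 160 CPM (1.55), and Vamp8 had 83.4, 96.8 and 126 CPM (1.51), and these were lowest in replicate 1 and highest in replicate 3. Vti1a, next at 1.34, had 71.2, 86.1 and 64.4 CPM and was lowest in replicate 3. Adjusted p in the Poisson heterogeneity test was 1.05e-165 for Stxbp3, 8.08e-103 for Vamp8, 2.01e-73 for Stx11, 2.02e-58 for Stx3 and 2.90e-38 for Vti1a. It measures departure from counting error and depends on depth as well as on the ratio, so it does not rank the size of the spread.

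Bet1 (highest over lowest 1.31), Vamp5 (1.31), Stx2 (1.31), Vamp2 (1.25) and Stx6 (1.2) followed. Stx2 had 69.6, 74.8 and 91.1 CPM and was highest in replicate 3, whereas Vamp2 had 23.7, 22.9 and 19.0 CPM and was lowest there. Vamp5 had only 115, 143 and 154 counts and did not pass the test. At the other end stood Nsf, with 102, 104 and 100.9 CPM, and Vti1b, with 51.2, 52.9 and 50.0 CPM.

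Variation beyond counting error was called for 28 of 35 members (80%) at a Benjamini-Hochberg adjusted threshold of 0.05, against 70% of all genes averaging 10 or more counts and 76.4% of those averaging 100 or more. The second set shares only that minimum with the members, whose counts lay well above it except in Vamp5, so depth was not matched. Vti1b, Nsf, Stx18, Vamp5, Bet1l, Stx17 and Vamp1 were not called. Without replicate 3 the number called was 18 of 35 (51.4%), against 49.8% of all genes tested. Without replicate 1 it was 21 (60%), against 53.8%, and without replicate 2 it was 19 (54.3%), against 52.8%.

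Of the 35 members, 5 were highest in replicate 1, 11 in replicate 2 and 19 in replicate 3 in CPM, against 34.4%, 31.4% and 34.2% of all genes tested. In TPM rescaled to protein-coding genes, these numbers were 17, 7 and 11, so which replicate was highest depended on the scaling. The median deviations of members were small, at -0.03, -0.03 and 0.05 on the log2 scale in replicates 1, 2 and 3. The macrophage markers were highest in replicate 3 for 4 of 8 genes and lowest in replicate 1 for 5 of 8, and their part in the members' pattern was not tested.

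**Figure D3:**
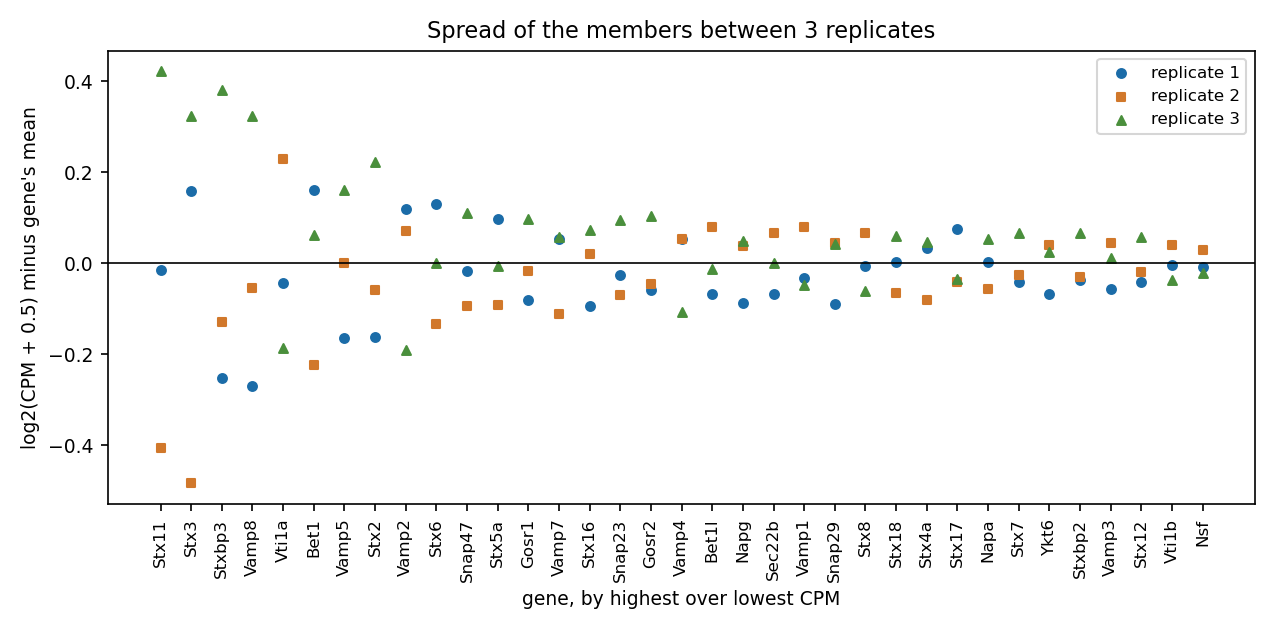
Deviation of log2(CPM + 0.5) from the mean of each gene, for 35 members in order of the ratio of highest to lowest replicate; symbols are the 3 replicates. Stx11, Stx3, Stxbp3 and Vamp8, at the left, have replicate 3 on top, and Nsf, at the right, has a ratio of 1.04.

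The annotation gives 235 transcripts for the 36 members. Of the 33 members with at least 2 transcripts and a TPM above 0, 20 had at least 70% of it on 1 leading transcript and 13 had less. Vamp8, Vamp3, Stx12 and Ykt6 each had more than 98% on 1 transcript. Over all members, protein-coding transcripts held 87.9% ± 1.10 of TPM (SD, n = 3), retained-intron transcripts 6.64% ± 1.05, transcripts annotated as targets of nonsense-mediated decay (NMD) 3.44% ± 0.10 and processed transcripts 1.97% ± 0.27. The second transcript table gave 82.6% ± 3.03 to protein-coding transcripts. Coding transcripts held at least 90% of the level in 26 members and under 70% in 6, which were Stx7, Vti1b, Sec22b, Stx8, Stx6 and Vamp1.

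Of these 6, Stx7, Vti1b and Stx8 belong to the late endosomal complex. Stx7-203, a retained-intron transcript of 362 bases, held 37.6, 30.8 and 43.4% of the Stx7 level in replicates 1, 2 and 3. It has 3 exons, the last of which runs 86 bases past the splice site used by the coding transcripts (chr10:24177236-24177321). Coding transcripts of Stx7 had 40.9, 31.4 and 47.5 TPM and those of Stx4a 45.9, 30.8 and 46.8, so the order of the pair differed between replicates once other transcripts were left out. The leading Stx7-201 held 40.4, 35.7 and 43.9%.

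Stx8-204, a processed transcript without a coding sequence, led Stx8 at 55.0, 58.6 and 60.7%. It has 552 bases, lacks 167 bases that Stx8-201 has between shared ends, and its share in the second transcript table was 64.4%. These shares, too, are of TPM on a short transcript and not of reads. Stx8-201 held 32.2, 30.1 and 27.8%. In Vti1b, the NMD transcript Vti1b-203 held 31.6, 35.6 and 40.8%, beside 54.9, 56.1 and 55.2% for the coding Vti1b-201.

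Vti1b-203 differs from Vti1b-201 in its inner exons only by the loss of a 59-base exon, and Sec22b-204 from Sec22b-201 only by 4 bases at a splice acceptor. Neither number is a multiple of 3, so both shift the reading frame. These stretches are shown within the coding transcript, with the bases that the NMD transcript lacks in capitals (mm10; the coordinates span 1 intron in Sec22b and, on both sides of the lost exon, 2 in Vti1b).

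Sec22b-201 (chr3:97901408-97907237, plus strand): ggaggacgagcagTCAGgccgggaccttca
Vti1b-201 (chr12:79165128-79172231, minus strand): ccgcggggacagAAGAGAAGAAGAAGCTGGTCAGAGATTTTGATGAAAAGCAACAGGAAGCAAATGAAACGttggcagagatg

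Sec22b-204 held 44.8, 37.4 and 40.5% of Sec22b in replicates 1, 2 and 3, against 48.0, 58.4 and 56.5% for Sec22b-201. In the second transcript table the NMD transcript was the leader, at 55.1, 54.7 and 55.2%. The 1355 bases of Sec22b-204 all lie within Sec22b-201, and which of the tables is closer to the RNA was not tested. Stx6-207 is an NMD transcript with 64 bases in 1 run that Stx6-201 lacks within the span both share. It varied most between replicates of the 3 NMD transcripts named, at 16.5, 27.4 and 41.7% of Stx6. The coding Stx6-201 held 46.7, 61.6 and 50.3%. In the second transcript table Stx6-207 held 6.69, 21.6 and 31.7% and Stx6-201 held 18.7, 32.1 and 35.1%. Vamp1-204, a processed transcript of 5709 bases in 2 exons, held 62.3, 64.2 and 60.5% of the low Vamp1 level, so coding transcripts of Vamp1 came to 0.43, 0.44 and 0.60 TPM.

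**Figure D4:**
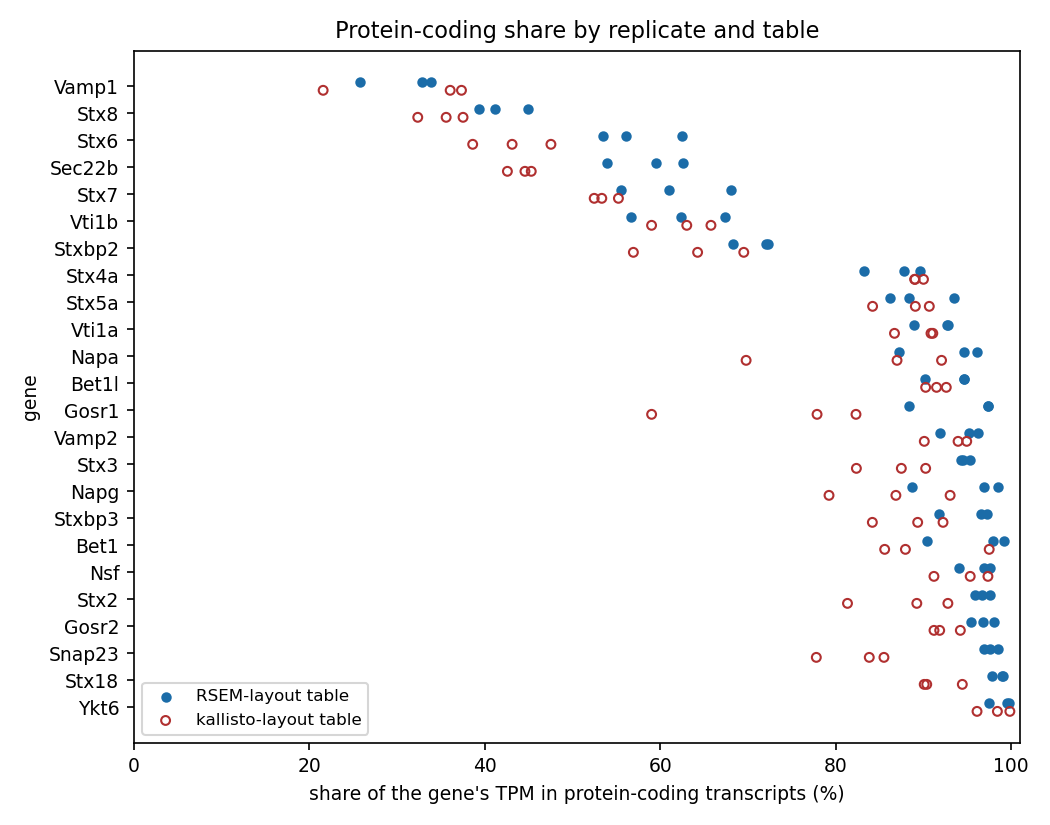
Share of TPM on protein-coding transcripts, in percent, for members where it was under 99%; filled symbols are replicates in the first (RSEM-layout) table and open symbols replicates in the second (kallisto-layout) table. Vamp1, Stx8, Stx6, Sec22b, Stx7 and Vti1b lie under 70% in the first table.

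The other members with a leading transcript under 70% divided their level among coding transcripts or minor forms. Vti1a-201 held 49.0, 54.3 and 56.7% in replicates 1, 2 and 3, and Stxbp2-201 held 59.2, 60.3 and 59.9%. Stx5a-202 held 38.9, 42.3 and 52.4%, Stx18-201 held 45.6, 44.1 and 38.5%, and Stx17-202 held 50.0, 53.2 and 53.1%. These were the leaders in both tables. Stx16 and Stx11, like Sec22b, had another leader in the second table. Stx16-201 held 64.7, 72.9 and 61.4% in the first table and 12.6, 15.5 and 11.5% in the second, where Stx16-202 led with 34.9%. Stx11-201 held 48.5, 48.4 and 52.6% in the first table, and Stx11-203, of 441 bases, led the second with 39.3%. For these 3 genes the leading transcript is uncertain, and for the other 30 both tables named the same one.

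Reads shared with other genes left little room in the counts, with a posterior SD above 0 in 6 members and at most 0.328% of the count, in Bet1l. Overlap on the opposite strand is a separate limit, because no strand setting was given. Bet1l shares 390 exonic bases with Ric8a, whose counts were 368% of those of Bet1l, Snap29 shares 60 with Pi4ka (131%) and Snap47 shares 307 with Jmjd4 (46.6%), so the levels of Bet1l, Snap29 and Snap47 are uncertain. Vti1b shares 285 bases with Arg2, which had 1.25% of its counts.

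Genes that act beside the members were followed in 6 lists of 75 genes, of which 74 were matched and 36 detected. Every tether listed reached a TPM of 1 in every replicate. They were 8 of the endosome and lysosome, 9 of the exocyst and 5 of the ER and Golgi. The first of these lists holds HOPS and CORVET subunits and the associated Vipas39. The lists are selections, so they do not show that all tethers were present. Vipas39 (31.8 ± 7.09 TPM, SD, n = 3), Vps41 (24.3 ± 3.62) and Vps11 (14.2 ± 2.66) led the first list, Exoc5 (15.5 ± 3.53), Exoc1 (15.3 ± 2.22) and Exoc4 (14.5 ± 2.43) the second, and Uso1 (17.2 ± 3.76), Golga2 (12.3 ± 3.09) and Nbas (4.28 ± 0.91) the third. Of priming factors and calcium sensors, 3 of 34 were detected and 13 were listed at 0 TPM in every replicate. The 3 detected were Unc13d (10.75 ± 2.96 TPM), the priming factor Munc13-4 of granule release in blood cells, Syt11 (2.76 ± 0.32) and the GTPase Rab27a (1.31 ± 0.12). Syt7 missed the minimum in replicate 1 only, with 0.96, 1.09 and 1.2 TPM in replicates 1, 2 and 3.

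Further SM proteins and binders had 7 of 11 genes detected, led by Vps33a (28.1 ± 4.58 TPM, SD, n = 3), the SM subunit of HOPS, the syntaxin binder Stxbp5 (19.2 ± 6.36) and Scfd1 (14.96 ± 3.68), the SM protein of syntaxin 5. Other SNAREs had 4 of 7 detected, led by Use1 (30.8 ± 4.71 TPM), Bnip1 (6.13 ± 0.94) and Sec22c (3.63 ± 0.35). Over the 6 lists, 30 of 42 genes tested varied beyond counting error (71.4%), against 70% of all genes tested.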

How the data were processed

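Cytosolic RNA of 3 libraries (1 group) was analysed. The deposited files are, per library, a table of genes and a pair of transcript tables. The expected count, an estimate of reads, and TPM were deposited by the authors in the gene and first transcript tables, and the second transcript table holds estimated counts and TPM as the authors deposited them. Percent of a gene's TPM per transcript was also deposited and was computed again here. The mm10 assembly and annotation M21 are named per the file headers; the sources used here give no quantifier, aligner or strand setting, and "RSEM-layout" and "kallisto-layout" describe columns only.

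Expected counts were rounded for the count tests. Entries naming no gene (0.0251 to 0.0785% of counts) were left out. Variation beyond counting error was tested over all genes averaging 10 or more counts by a chi-square of Poisson heterogeneity (2 degrees of freedom) on TMM library sizes with Benjamini-Hochberg adjustment. Biological coefficients of variation were estimated with edgeR 4.0.16 in R 4.3.3, intercept only; size factors of DESeq2 1.42.0 were an alternative. Pairs used log2(TPM + 1) and an exact sign-flip permutation. The steps were tested on simulated data. Sequences were read from GENCODE M21 transcripts at annotated coding positions.

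Every matched member is named; of the other lists the 3 highest are named, with others added after their values were seen. Members and lists were chosen with earlier results of these data known. Alternatives on coding transcripts and on transport steps were chosen after seeing the data.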

Additional observations from a re-analysis of the deposited data

How the results depend on the processing

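The number of members detected was 35, and 29 to 35 under all alternatives, with 29 at a TPM minimum of 5 and 33 of 35 in the second transcript table, where Vamp7 has no entry and Vamp1 was under 1 TPM. The median member TPM of 14.4 was 45.1 after rescaling to protein-coding genes and 7.40 in the second transcript table. Members varying beyond counting error numbered 18 to 21 when 1 replicate was left out, against 28 with all 3, and 18 without replicate 3; fewer samples enter there, and the share of all genes tested was also lower, at 49.8 to 53.8% against 70%. The number highest in replicate 3 was 19 in CPM and 11 in rescaled TPM. Helix shares in the second transcript table were 38.2% for Qa, 6.73% for Qc and 32.2% for R. On protein-coding transcripts alone they were 33.6% for Qa, 8.78% for Qbc, 4.36% for Qc and 38.9% for R. The difference of Stxbp2 from Stxbp3 was -0.30 on coding transcripts and -0.00098 to 0.27 when 1 replicate was left out. The cause of these shifts was not tested. Of 118 alternatives for pair differences, 100 stayed within the spread between replicates, 16 moved past it in size and 2, both for Stxbp2 and Stxbp3, turned sign. Alternatives that left 1 replicate out could not move past that spread, because dropping 1 of 3 values shifts a mean by less than 1 SD. They are counted among the 118, so the 100 is not a measure of robustness. The share of the leading transcript was lower in the second transcript table for 28 of 33 members. That transcript was chosen as the highest in the first table, which by itself favours a lower share in the second. No paired analysis was possible because there is 1 group. Depth limits Vamp5, at 115 to 154 counts, and Snap25, at 0 in the gene tables.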
